A study of Mus musculus with 6 samples.

Results

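The Hsp70 chaperone family was followed here in mouse embryonic stem (ES) cells through 31 Affymetrix probe sets, which represent 10 genes, among 45037 probe sets tested. A probe set is a group of short array probes that reads 1 transcript. Members were all probe sets to which the array's table gives the single symbol Hspa1a, Hspa1b, Hspa2, Hspa4, Hspa4l, Hspa5, Hspa8, Hspa9, Hspa14 or Hsph1. A single symbol was given to 34945 probe sets of 18193 genes, and 0 probe sets with several symbols included a member. The family was chosen by the values of induced minus uninduced expression in these same arrays, in which Hspa1b and Hspa1a led all genes. That contrast is therefore given below as a description and supports nothing by itself. Differences between the clones were not used in the choice, and they were tested.

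The study made ES clones that each carry a human coding sequence under a tetracycline-repressible promoter, and the arrays described here are those for GTF2IRD2, a transcription factor gene of the Williams-Beuren syndrome region. Induced cultures had been without tetracycline for 24 hours, and uninduced cultures were kept in medium with tetracycline (0 hours). Each of the clones A3, A4 and A5 gave 1 array of each kind, so that each group held 3 arrays and each clone 2. All 6 cultures, the uninduced ones included, descend from the line EBRTcH3 and carry the 3xFLAG-tagged human sequence, without untranslated regions, in the ROSA26 locus. These 6 arrays include no line without the transgene and no uninduced culture at 24 hours. The removal of tetracycline, the 24 hours of further culture and the expression of GTF2IRD2 therefore cannot be told apart. The methods state that the longest annotated coding sequence was used, but the GTF2IRD2 insert printed with the study is much shorter than those of its relatives GTF2I and GTF2IRD1, and whether the clones make the whole factor is not known here. The 3 cultures of a group are labelled as biological replicates, each is 1 clone, and the p-values below reflect how much these particular cultures varied.

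Hsp70 proteins bind exposed hydrophobic stretches of unfolded or newly made proteins and release them in a cycle driven by ATP. Cochaperones of the Hsp40 family start the cycle, and nucleotide exchange factors, among them the Hsp110 branch of the family itself, let it begin again. Hspa1a and Hspa1b are among the members known for induction by heat and other stress through heat shock factor. Hspa8 in the cytosol, Hspa5 in the endoplasmic reticulum and Hspa9 in mitochondria serve cells at all times.

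The family's promoters are shown first because Hspa1a and Hspa1b are set apart below from the other members by their expression. Windows of 250 bases before to 50 after the transcription start (RefSeq, GRCm38.p6) matched 8 of the 10 genes. Hspa8 and Hspa9 were not among them. Hspa1a and Hspa1b both lie on the minus strand of chromosome 17, and their windows differ at 4 of 300 bases. With positions counted from 1 at the window's 5′ end and the base of Hspa1a first, the differences are C44T, T47C, T249G and C276T. The last 110 bases before the start are at chr17:34972157-34972266 for Hspa1a and chr17:34959239-34959348 for Hspa1b, with a 2-unit heat shock element in capitals.
Hspa1a: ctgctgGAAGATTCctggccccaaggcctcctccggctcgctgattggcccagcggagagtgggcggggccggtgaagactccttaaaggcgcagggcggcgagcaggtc
Hspa1b: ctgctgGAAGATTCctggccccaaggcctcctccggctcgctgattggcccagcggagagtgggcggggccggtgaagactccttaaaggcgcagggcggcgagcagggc

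Both windows hold GAAGATTC at 104 bases before the start, in the letters of the 2-unit heat shock element (GAANNTTC or TTCNNGAA), which occurs in 15.1% of all 32851 windows of the same length. The 3-unit element (GAANNTTCNNGAA or TTCNNGAANNTTC), which contains the 2-unit one and occurs in 0.603% of windows, was found in neither. Of the 8 genes only Hsph1 held it, as TTCTGGAAAGTTC at chr5:149636288-149636300 on the minus strand, after the start. The window at the more upstream of the 2 Hsph1 starts also holds a separate 2-unit element before the start, shown in capitals within chr5:149636337-149636446. Hspa5, on the plus strand of chromosome 2, held the endoplasmic reticulum stress element (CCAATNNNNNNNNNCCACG), which 0.119% of windows hold, and it is in capitals within chr2:34771980-34772089.
Hsph1: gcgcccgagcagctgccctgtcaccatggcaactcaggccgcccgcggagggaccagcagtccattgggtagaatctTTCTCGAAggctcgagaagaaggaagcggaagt
Hspa5: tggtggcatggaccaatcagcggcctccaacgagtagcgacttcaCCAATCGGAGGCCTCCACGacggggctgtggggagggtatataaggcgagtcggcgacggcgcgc

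In the windows of Hspa2, Hspa4, Hspa4l and Hspa14 none of these letters occurred, and TATAAA, present in 13.6% of windows, occurred in none of the members' windows. Both strands were searched for exact letters only, so that elements with a changed base would be missed. A match says only that the letters are there, and these arrays did not measure binding.

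The stress-inducible pair Hspa1a and Hspa1b had higher values in the induced than in the uninduced array of every clone, at all 4 of their probe sets. Values are log2 expression after robust multi-array averaging (RMA), so that a difference of 1 is 2-fold. In RNA of whole cultures, more cells with a transcript and more of it per cell cannot be told apart. At the Hspa1b probe set 1427127_x_at the induced arrays had 8.23 (A3), 8.81 (A4) and 8.78 (A5), against 7.96, 7.28 and 7.75 in the uninduced arrays of the same clones. All 3 induced arrays lay above all 3 uninduced ones, with 0.27 between the nearest values. The induced arrays averaged 8.61 ± 0.33 and the uninduced ones 7.66 ± 0.35 (log2, SD, n = 3 each), a difference of 0.94 ± 0.20 (SE) or 1.92-fold. Here and below, SEs of induced minus uninduced differences are from the fit without the clone, unless stated.

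The other 2 Hspa1b probe sets gave the same picture. Probe set 1452318_a_at had 8.75, 9.10 and 8.99 in the induced arrays of A3, A4 and A5, against 8.42, 7.84 and 8.07 in the uninduced ones, a difference of 0.84 ± 0.15 (SE). Probe set 1427126_at had 7.80, 8.35 and 8.30 in the induced arrays, against 7.42, 6.93 and 7.37 in the uninduced ones, a difference of 0.91 ± 0.17 (SE). In each probe set the induced A3 array was the lowest of the induced arrays, and the uninduced A3 array the highest of the uninduced ones.

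Hspa1a, whose product is nearly identical to that of Hspa1b, is read by the single probe set 1452388_at. It had 6.42, 6.99 and 6.85 in the induced arrays of A3, A4 and A5, against 6.27, 5.91 and 5.88 in the uninduced arrays. The groups again did not overlap, and their nearest values were 0.14 apart. Its difference was 0.73 ± 0.16 (SE), or 1.66-fold. Probes for these paralogs may read transcripts of both genes, so that the 4 probe sets are not 4 independent measurements of separate genes.

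**Figure D1:**
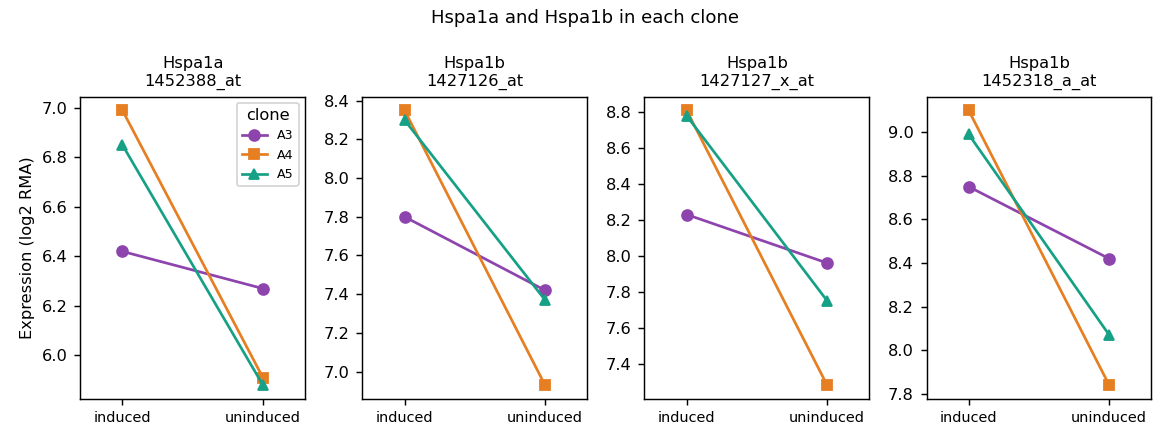
Expression (log2 RMA, y axis) of the Hspa1a probe set and the 3 Hspa1b probe sets in induced and uninduced cultures (x axis), with 1 line for each clone. All lines are higher at the induced end, and the line of A3 is the flattest in each panel, with a difference of 0.14 to 0.39 against 0.92 to 1.52 in A4 and A5.

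The size of the difference was unequal between clones. Hspa1a differed by 0.14 (A3), 1.08 (A4) and 0.97 (A5), which is 1.10-fold, 2.11-fold and 1.96-fold. Hspa1b at 1427127_x_at differed by 0.27 (A3), 1.52 (A4) and 1.04 (A5). Among all 45037 probe sets, the 4 of Hspa1a and Hspa1b held ranks 1 to 4 for the induced minus uninduced difference in A4, ranks 2, 3, 4 and 6 in A5, and ranks 751 to 7762 in A3. With 1 array of each kind per clone the difference between clones in this response was not tested. Over the mean of the clones the 4 probe sets held ranks 1 to 4, and they were 4 of the 5 probe sets in the whole array at 1.5-fold or more, with 0 at that size in the other direction. For scale, the SD of all 45037 differences was 0.170 (A3), 0.147 (A4) and 0.168 (A5).

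Control probe sets of the arrays also moved between the groups, and their part in these differences was not tested. Poly-A spikes, which are bacterial RNAs put into each sample, were higher in the induced array by 0.33 (A3), 0.09 (A4) and 0.50 (A5) (log2), and hybridisation spikes by 0.03, 0.02 and 0.21. At 1 control probe set for 18S ribosomal RNA the signal was 7.91, 8.11 and 8.11 in the induced arrays of A3, A4 and A5, against 9.55, 7.81 and 12.05 in the uninduced ones, so that the uninduced A5 and A3 arrays stood apart. On all arrays the 3′ probe set of Actb exceeded the 5′ one by 0.27 to 0.36, and that of Gapdh by 0.03 to 0.12. The cultures had the profile of ES cells, with all 10 ES markers at means of 9.83 to 13.88. Fibroblast and feeder markers, read at 8 genes, averaged 4.47 to 4.53 in induced and 4.51 to 4.55 in uninduced arrays, and endoderm markers 4.47 to 4.70 in induced and 4.51 to 4.66 in uninduced arrays. Neural markers averaged 6.14 to 6.24 in induced and 6.21 to 6.29 in uninduced arrays.

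The 8 other genes of the family had differences near 0 on the same scale. With each gene taken at its probe set of highest mean, their differences had a median of 0.01 and ranged from -0.04 to 0.10, and 5 of 8 were above 0. Hspa1a and Hspa1b taken the same way averaged 0.78, with 0.24 (A3), 1.17 (A4) and 0.94 (A5) (SD over clones 0.49), while the medians of the 8 others in these clones were -0.02, 0.11 and 0.01. The pair exceeded the median of the others by 0.26 (A3), 1.06 (A4) and 0.94 (A5), a mean of 0.75 (SD 0.43, n = 3 clones). All 18193 genes taken the same way had a median of 0.00. Over all 27 probe sets of the 8 genes the 95% interval of the difference lay within 2-fold in both directions for all 27, and within 1.5-fold for 26. These intervals are a description only, since this contrast led to the choice of the family.

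**Figure D2:**
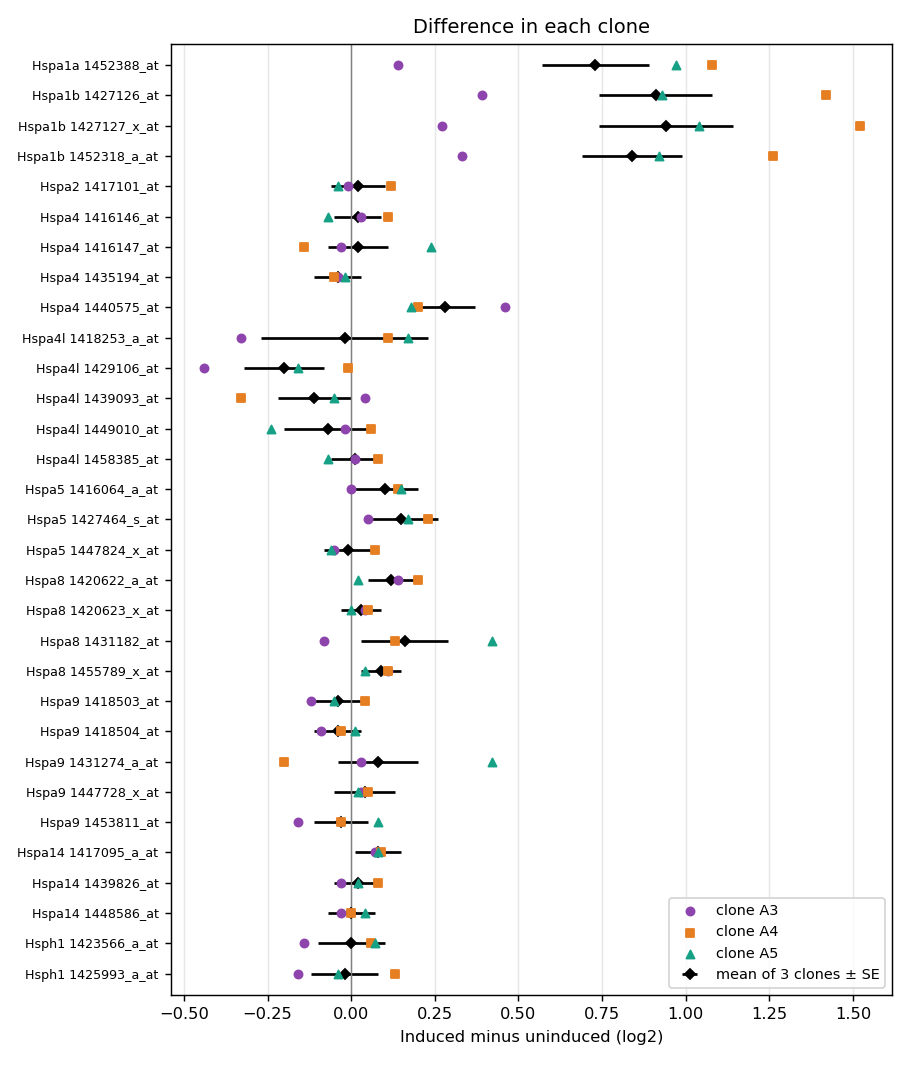
Difference in expression, induced minus uninduced (log2, x axis), at the 31 family probe sets (y axis) in clones A3, A4 and A5, with the mean of the clones and its SE from the comparison without the clone as a block. The 4 probe sets of Hspa1a and Hspa1b have means of 0.73 to 0.94, and the 27 others means of -0.20 to 0.28.

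Hspa8, the constitutive Hsp70 of the cytosol that also strips clathrin from coated vesicles, had small differences. At 1420622_a_at it had 12.82, 12.85 and 12.74 in the induced arrays of A3, A4 and A5, against 12.68, 12.65 and 12.72 in the uninduced ones, a difference of 0.12 ± 0.07 (SE). The groups did not overlap there, but only 0.02 lay between the nearest values. Probe sets 1455789_x_at (0.09 ± 0.06) and 1420623_x_at (0.03 ± 0.06) also kept all induced above all uninduced arrays, by 0.04 and by less than 0.01. At 1431182_at the difference was 0.16 ± 0.13, with -0.08 (A3), 0.13 (A4) and 0.42 (A5), and the groups overlapped.

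Hspa2, a chaperone known for its need in meiosis of male germ cells, had 5.74, 5.69 and 5.73 in the induced arrays of A3, A4 and A5, against 5.75, 5.57 and 5.77 in the uninduced ones (difference 0.02 ± 0.08). Hspa14, an Hsp70 that works at the ribosome together with Dnajc2, had differences of 0.08, 0.02 and 0.00 over its 3 probe sets, each with an SE of 0.07. In both genes the arrays of the 2 groups overlapped at every probe set.

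Hspa5, the endoplasmic reticulum chaperone BiP, which also holds the sensors of the unfolded protein response inactive, differed by 0.10 ± 0.10 at 1416064_a_at and 0.15 ± 0.11 at 1427464_s_at. At 1427464_s_at it had 12.03, 11.80 and 11.85 in the induced arrays of A3, A4 and A5, against 11.97, 11.57 and 11.68 in the uninduced ones. Both A3 arrays stood above the 4 arrays of the other clones, and the groups overlapped through the uninduced A3 array. The remaining Hspa5 probe set, 1447824_x_at, differed by -0.01 ± 0.07. With single arrays left out, the first 2 differences ran from 0.04 to 0.19 and from 0.07 to 0.27, lowest when the uninduced A4 array was dropped and highest when the uninduced A3 array was. Dropping the induced A3 array gave 0.05 and 0.08.

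Hspa9, the mitochondrial member that pulls imported proteins into the matrix, had differences of -0.04 to 0.08 over its 5 probe sets. At 1418504_at it had 12.35, 12.29 and 12.37 in the induced arrays of A3, A4 and A5, against 12.44, 12.32 and 12.36 in the uninduced ones, and the groups overlapped. The difference of 0.08 ± 0.12, at 1431274_a_at, came from clones that moved apart, with 0.03 (A3), -0.20 (A4) and 0.42 (A5).

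The Hsp110 branch, Hspa4, Hspa4l and Hsph1, encodes larger relatives that act as nucleotide exchange factors for other Hsp70s. Hspa4 had differences of 0.02, 0.02 and -0.04 at 3 of its probe sets (1416146_at, 1416147_at and 1435194_at). The remaining one, 1440575_at, had 6.09, 6.06 and 5.93 in the induced arrays of A3, A4 and A5, against 5.62, 5.86 and 5.76 in the uninduced ones. The groups did not overlap there, and the difference of 0.28 ± 0.09 was the highest outside Hspa1a and Hspa1b. It was not shared by the other Hspa4 probe sets, of which 1416146_at had 12.58, 12.57 and 12.56 in induced against 12.56, 12.46 and 12.62 in uninduced arrays.

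Hsph1 had differences of 0.00 ± 0.10 at 1423566_a_at and -0.02 ± 0.10 at 1425993_a_at. At 1425993_a_at it had 11.52, 11.41 and 11.43 in the induced arrays of A3, A4 and A5, against 11.68, 11.28 and 11.47 in the uninduced ones, with A3 the highest clone in both groups. Hspa4l, best known from testis, had a mean under 5 at 4 of its 5 probe sets, and its differences ranged from -0.20 to 0.01. At 1418253_a_at, the exception, the difference of -0.02 ± 0.25 had the largest SE of the family, and the clones lay far apart. With the clone as a block its SE was 0.10.

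**Figure D3:**
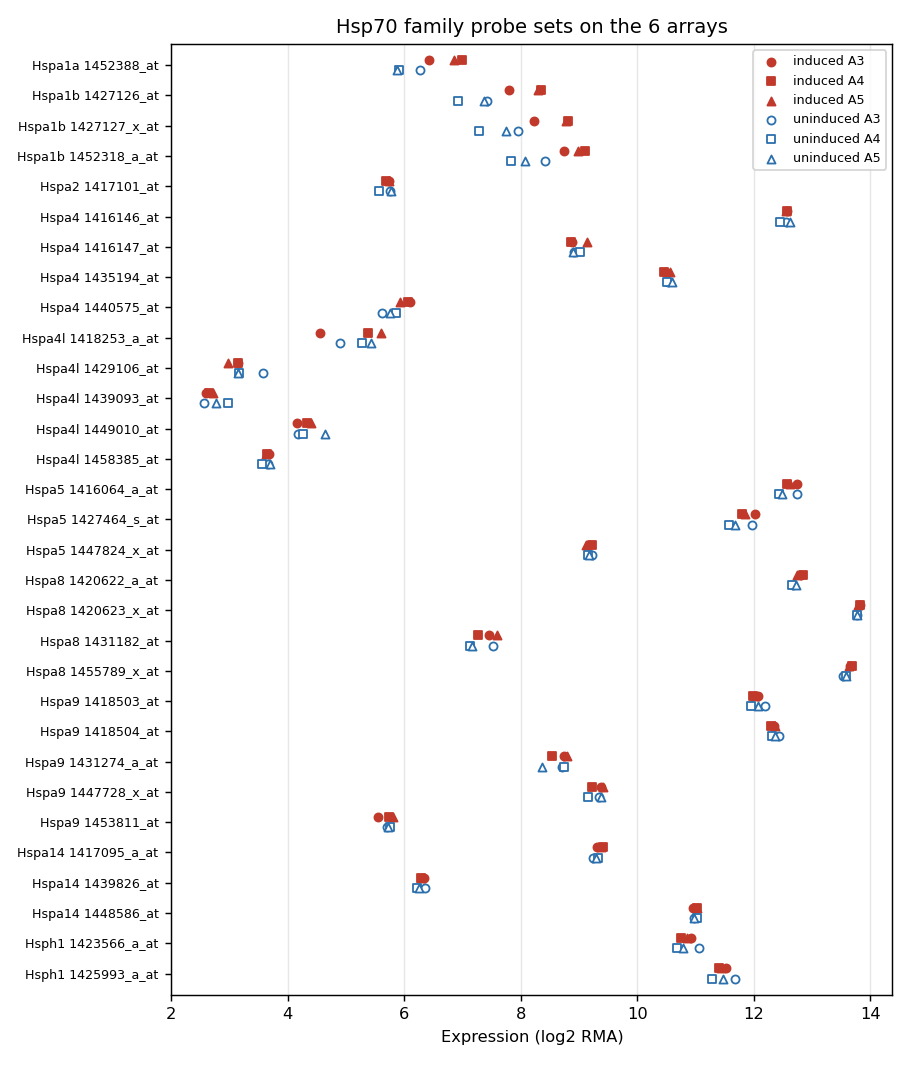
Expression (log2 RMA, x axis) of the 31 family probe sets (y axis, by gene) on each of the 6 arrays, with induced cultures filled and uninduced cultures open, and 1 symbol shape for each clone. The groups do not overlap at Hspa1a and Hspa1b, where 0.14 to 0.39 lies between the nearest values. At Hspa4l 1418253_a_at both A3 arrays (4.56 and 4.89) lie below the 4 others (5.27 to 5.60). Positions of different probe sets along the axis are not comparable as transcript amounts.

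Over the whole table limma called 0% of the 45037 probe sets between induced and uninduced cultures (Benjamini-Hochberg adjusted p under 0.05), and 0 of the 31 members were among them. At an unadjusted p under 0.05 limma had 1404 probe sets in all and 5 members, and with the clone as a replicate block 2597 and 5, while the methods' t-test had 1681 and 7. All induced arrays lay above all uninduced ones at 3.35% of all probe sets and at 8 of 31 members, which were the 4 of Hspa1a and Hspa1b, 3 of Hspa8 and 1 of Hspa4. The opposite held at 4.61% of all probe sets and 0 members. Values were higher in the induced array of every clone at 12.2% of all probe sets and 11 members, and lower in every clone at 13.7% and 2 members. Since this contrast led to the choice of the family, nothing is read from these counts.

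Differences between the clones were tested by a moderated F-test in limma, with induction in the same fit. It called 980 probe sets, 2.18% of those tested, and 1 of the 31 members, Hspa4l at 1418253_a_at. There the induced arrays had 4.56 (A3), 5.38 (A4) and 5.60 (A5), and the uninduced arrays 4.89, 5.27 and 5.43, so that both A3 arrays were below the other 4. The clone means were 4.73 (A3), 5.33 (A4) and 5.52 (A5) (n = 2 arrays each). A3 minus A4 was -0.60 ± 0.13 (SE) and A3 minus A5 -0.79, with an adjusted p of 0.0359 in limma. The call was lost without the induced A3 array (adjusted p = 0.199), without the induced A5 array (0.0663) and without both A3 arrays (0.735). The Hspa4l probe set 1449010_at had the same order of clones, 4.17, 4.30 and 4.52 (adjusted p = 0.228), and 1429106_at the opposite one, 3.36, 3.16 and 3.06 (adjusted p = 0.379).

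Hspa1a and Hspa1b, which differed most with induction, had clone means close together. At 1452388_at Hspa1a averaged 6.34 (A3), 6.45 (A4) and 6.37 (A5), and at 1452318_a_at Hspa1b averaged 8.58, 8.47 and 8.53. Over the 4 probe sets the adjusted p of the clone term was 0.792 to 0.948 in limma. These means combine an induced and an uninduced array, and the order of the clones was turned between them, with A3 lowest among induced and highest among uninduced arrays.

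Hspa5, at 1427464_s_at and 1416064_a_at, and Hsph1 had their highest clone mean in A3, without passing the threshold. Hspa5 at 1427464_s_at averaged 12.00 (A3), 11.69 (A4) and 11.76 (A5) (limma, adjusted p = 0.216), and at 1416064_a_at 12.74, 12.51 and 12.55 (adjusted p = 0.363). Both passed when limma's variance prior followed intensity (adjusted p = 0.00876 and 0.0289). That setting also raised the calls over all probe sets from 980 to 2641. The remaining Hspa5 probe set, 1447824_x_at, did not share this order, with 9.20, 9.20 and 9.15 (limma, adjusted p = 0.917). Hsph1 averaged 10.99, 10.72 and 10.82 at 1423566_a_at (adjusted p = 0.338) and 11.60, 11.35 and 11.45 at 1425993_a_at (adjusted p = 0.404). Hspa8 averaged 7.49, 7.19 and 7.37 at 1431182_at (adjusted p = 0.429), and 13.80, 13.80 and 13.79 at 1420623_x_at (adjusted p = 0.994), which reads near the top of the scale. Among the cell type markers Fgf4, an ES cell growth factor gene, also passed the clone term, with 10.16, 9.65 and 9.69 (limma, adjusted p = 0.0288), as did the endoderm marker Dab2, with 4.99, 4.90 and 5.40 (adjusted p = 0.0390). Their part in the family's clone differences was not tested.

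**Figure D4:**
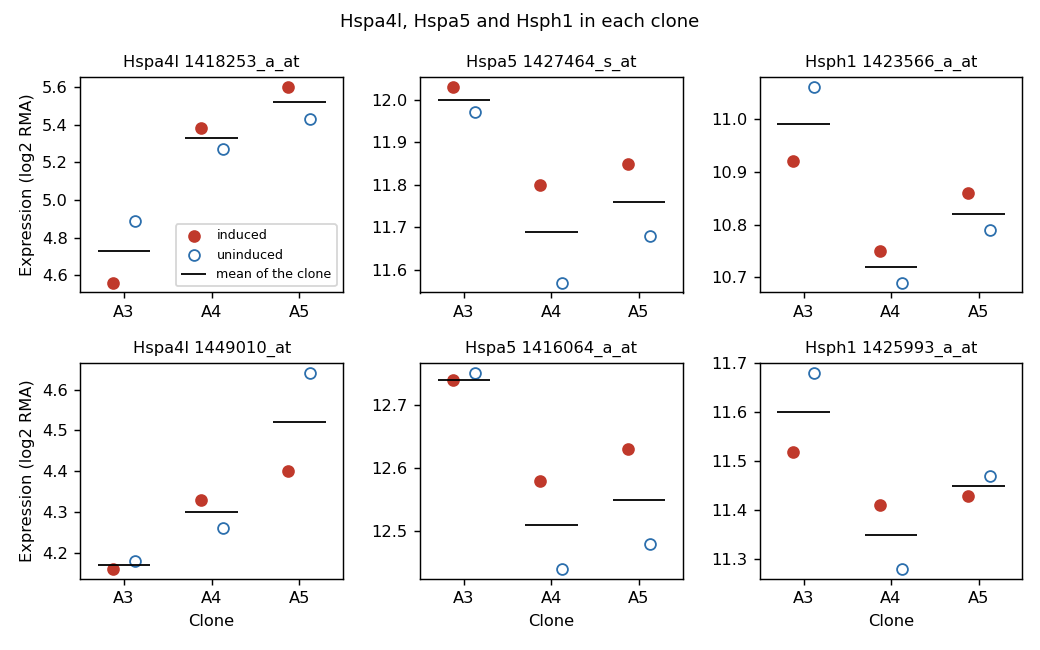
Expression (log2 RMA, y axis; each panel has its own range) in clones A3, A4 and A5 (x axis) at 2 probe sets each of Hspa4l, Hspa5 and Hsph1, with induced arrays filled, uninduced arrays open and a line at the mean of the clone. The A3 mean is the lowest at both Hspa4l probe sets, 4.73 and 4.17, and the highest in the 4 other panels. The 2 probe sets of a gene with the smallest p of the clone term are shown, so the panels were chosen by the difference they show. Among those left out, the A3 mean was highest at Hspa4l 1429106_at (3.36) and lowest at Hspa4l 1439093_at (2.58). Hspa5 1447824_x_at had 9.20 (A3), 9.20 (A4) and 9.15 (A5).

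Genes that work with the family or answer to the same factors were given by lists, each gene at its probe set of highest mean. Limma called 0 members of the 7 lists between induced and uninduced cultures. Among Hsp40 cochaperones, which deliver clients to Hsp70, 8 of 10 had a difference above 0 and the median was 0.03, against 0.00 over all genes. Dnajb2 differed by 0.19 ± 0.07, with no overlap of the groups, and Dnajb1, a stress-inducible partner of Hspa1a, by 0.15 ± 0.09, with -0.05 (A3), 0.19 (A4) and 0.32 (A5). Dnajb5 was lowest at -0.04 ± 0.08, followed by Dnajb6 at -0.00 ± 0.13 (0.997-fold). The nucleotide exchange factors and other partners had 5 of 10 above 0 and a median of 0.00, from Bag6 (-0.12 ± 0.10) and Bag3 (-0.10 ± 0.08) to Bag2 (0.08 ± 0.11) and Sil1 (0.12 ± 0.08), which serves Hspa5.

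Genes listed as targets of heat shock factor, other than the members, did not share the size of the Hspa1a and Hspa1b values. Of 15 measured among 18 listed, 10 had a difference above 0 and the median was 0.02. Hspa1l, the third gene of the Hspa1 group, is itself Hsp70-related but was not among the members followed here. It differed by 0.23 ± 0.10 at a mean of 3.45, with 0.15 (A3), 0.00 (A4) and 0.55 (A5). Cryab, a small heat shock protein gene, differed by 0.19 ± 0.32, with 0.20, 0.18 and 0.19 in the clones. With the clone as a block its SE was 0.07. Cryab passed the clone term (4.53 (A3), 5.55 (A4) and 5.40 (A5), adjusted p = 0.0023 in limma). Serpinh1, a collagen chaperone gene, stood at -0.15 ± 0.20 (SE 0.10 with the clone as a block) and Bag3 at -0.10 ± 0.08. The heat shock factors and genes that feed back on them had 2 of 6 above 0 and a median of -0.02, from Hsbp1 at -0.06 and Hsf2 at -0.04 to Stip1 at 0.02 and Chordc1 at 0.06.

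Partners of the organelle members were given the same way. Among endoplasmic reticulum chaperones and genes of the unfolded protein response, the setting of Hspa5, 12 of 18 had a difference above 0, beside 8819 of 18193 over all genes, and the median was 0.07. In all 3 clones 10 of the 18 were higher and 2 lower, beside the 12.2% and 13.7% of all probe sets given above. These shares are not alike. The list holds genes with means of 7.06 or more, and the percentages cover probe sets at every level. The list was also chosen with earlier results known, and nothing is read from its counts. Sdf2l1 was highest at 0.15 ± 0.08, without overlap of the groups, followed by Dnajc3 at 0.14 ± 0.11, while Herpud1 and Atf4 stood at -0.06 ± 0.07 each. Mitochondrial import and folding genes, the setting of Hspa9, had 7 of 11 above 0 and a median of 0.01, from Clpp (-0.04) and Dnaja3 (-0.02) to Hspe1 (0.02) and Hscb (0.04). The 5 other Hsp70-related genes, 4 of them above 0, had a median of 0.02, from Hyou1 at -0.01 and Hspa12a at 0.02 to Hspa13 at 0.06 and Hspa1l at 0.23.

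The genes outside the family whose 6 array values most resembled those of Hspa1a and Hspa1b were found by the root mean square difference between profiles, each centred on its own mean, among 20415 probe sets with 1 symbol and a mean of at least 5. The mean profile of the 4 Hspa1a and Hspa1b probe sets had a root mean square of 0.48 (log2), which is its distance from a flat line. The nearest were Trpc2 (0.28), Pim3 (0.32), Bbs4 (0.33), Pfkfb3 (0.34) and Scaper (0.34). Trpc2, a channel gene, had 5.29, 5.58 and 5.67 in the induced arrays of A3, A4 and A5, against 5.35, 5.09 and 5.10 in the uninduced ones, with differences of -0.06, 0.50 and 0.58. Of the other family members Hspa4 at 1440575_at and Hspa8 at 1431182_at were the nearest, both at 0.41.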

How the data were processed

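Total RNA of 6 cultures had been hybridized to Affymetrix GeneChip Mouse Genome expression arrays. The deposited values are log2 expression, which the authors made by RMA in the affy package (background correction, quantile normalization, summarization; versions and the arrays normalized together are not stated). Of 45101 probe sets, 64 manufacturer controls were set aside, and 45037 were tested without a filter. Precision is limited by the number of arrays. The contrast of induced with uninduced arrays used limma 3.58.1 in R 4.3.3 (two-sided, Benjamini-Hochberg over all probe sets, threshold 0.05), without the clone, as the methods name no pairing. Replicate numbers mark the same clone, and deviations from the group means correlated at 0.524 (A3), 0.376 (A4) and 0.210 (A5), against -0.407 to 0.0689 between clones. A fit with clone and induction gave the clone term. The fits were tested on simulated arrays with known changes added. Arrays of 1 clone were otherwise drawn independently there, so the correlation within clones was not part of that test.

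Members and lists were chosen with earlier results of these data known. The text names all members, up to 2 list genes each way, list genes past a threshold, and the 5 genes most like Hspa1a and Hspa1b. Symbols come from the platform table; Hsf1 and Ppid of the feedback list had no probe set with a single symbol. Alternatives were the replicate block, the methods' t-test, an intensity trend, a minimum mean of 5, rescaling, and leaving out arrays or clones.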

Additional observations from a re-analysis of the deposited data

How the results depend on the processing

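In every alternative run, limma or the methods' t-test called 0 probe sets and 0 family members between induced and uninduced cultures, where 419 to 2597 probe sets and 4 to 7 members had an unadjusted p under 0.05. With the replicate block the count stayed at 0, with a smallest adjusted p of 0.843. The block changed no family call and left the mean difference of Hspa1a and Hspa1b at 0.78. This value was 0.80 with arrays centred on their medians and 0.81 over all probe sets of a gene, and it ran from 0.59, without both A4 arrays, to 1.06, without both A3 arrays. The median of the 8 other genes ran from -0.02 to 0.05 over arrays and clones left out. At all 4 Hspa1a and Hspa1b probe sets every induced array lay above every uninduced one. Leaving out arrays therefore could not change the sign there. Of the 27 others, 15 changed sign at least once, and nothing is read from this comparison. The clone term was called at 980 probe sets, with 2641 under an intensity trend and 1885 at a mean of at least 5, and with 26 to 1427 when arrays or clones were left out (26 without both A3 arrays, 248 without the induced A3, 413 without the uninduced A3 and 633 without the uninduced A4 array). Family members called by the clone term numbered 3 under the intensity trend, which added 2 probe sets of Hspa5, and 0 to 1 when arrays or clones were left out. The cause of these shifts was not tested. With 2 arrays per clone and 3 per group, the number of arrays limits what could be called.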
